A study of Homo sapiens with 12 samples.

Results

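The genes of the proteasome, with the chaperones that build it, were examined in sorafenib-resistant and parental cells of 2 human liver cancer cell lines, Huh7 and HepG2. Members were chosen by name alone: a gene entered when its symbol was PSMA, PSMB, PSMC, PSMD, PSME, PSMF or PSMG followed only by digits. This gave 47 of the 27249 genes listed under an Ensembl identifier, and 19 other genes with a PSM symbol (pseudogenes and PSMC3IP) were left out. PSMB8 was not analysed here. Bulk RNA sequencing was available for 12 samples in 4 groups of 3. The labels give the resistant Huh7 and resistant HepG2 cells as treated with sorafenib, a multikinase inhibitor used against hepatocellular carcinoma, at a first dose of 10 μmol that was raised stepwise over 8 months. The parental Huh7 and parental HepG2 cells had no treatment, and all 4 groups carry the genotype label WT. Each resistant population was compared with the line it came from. Whether it was grown from 1 clone, and whether the 3 samples of a group were separate cultures, is not given in the sources used here, so the p-values measure a spread between samples that may be technical.

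The 26S proteasome degrades proteins tagged with ubiquitin. Its 20S core is a stack of rings: the outer rings hold the alpha subunits (PSMA genes) and the inner rings the beta subunits (PSMB genes), of which PSMB5, PSMB6 and PSMB7 carry the proteolytic sites with chymotrypsin-like, caspase-like and trypsin-like activity. The 19S cap recognises and unfolds substrates with a base of ATPases (PSMC genes) and a set of non-ATPase subunits (PSMD genes). Other caps (PSME genes) open the core without ubiquitin, and dedicated chaperones (PSMG genes for the core; PSMD5, PSMD9 and PSMD10 for the base) assist assembly. In immune or cytokine-treated cells PSMB8, PSMB9 and PSMB10 replace the constitutive catalytic subunits. When proteasome activity is limiting, the transcription factor NFE2L1 (NRF1) raises the transcription of proteasome genes in many cell types.

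Between 12290129 and 19285958 reads stood behind a sample, and log2 values of samples of the same group correlated at 0.9643 to 0.9856 (Pearson's r, across genes). Hepatocyte markers fitted the labelled cells: all 8 (ALB, APOA1, APOB, TTR, SERPINA1, TF, FGB and AFP) reached 1 FPKM in each group. FPKM are reads per length of merged exons and per depth of the sample. The summed level of the hepatocyte markers was 7798 to 9676 FPKM in parental and 5123 to 5270 FPKM in resistant Huh7 cells, and 4878 to 6023 and 3816 to 4090 FPKM in HepG2 cells. The summed levels of 4 leukocyte, 4 fibroblast and 3 endothelial markers did not exceed 3.67 FPKM in any sample. The fibroblast sum was 0.800 to 0.900 FPKM in parental and 2.23 to 2.58 FPKM in resistant Huh7 samples, from COL1A1, COL1A2 and LUM, with DCN near 0. Of the hepatocyte markers, 3 fell in each line, AFP most in Huh7 (-1.21 ± 0.18), APOA1 rose in Huh7 (0.97 ± 0.26), and the others did not pass the test. The part of these marker differences in the results was not tested. In bulk RNA, a change in the make-up of the cells and a change in the RNA per cell cannot be told apart.

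Levels differed widely among members. In the plot of levels in parental cells, most subunits lay between 10 and about 100 FPKM, PSMA7 lay above and a group of alpha subunits far below. Over the 12 samples, PSMA7 had the highest mean level (200 FPKM), followed by PSMB3 (124 FPKM) and PSMB5 (110 FPKM). In the alpha ring, where the protein subunits are present in equal number, PSMA4 averaged 51.1 FPKM and PSMA5 22.3 FPKM. The other alpha subunits of the ring, PSMA1 (3.87 FPKM), PSMA2 (3.29 FPKM), PSMA3 (3.73 FPKM) and PSMA6 (2.82 FPKM), were lower still. Levels of genes with shared exons depend on how reads of those exons were counted, which is not given in the sources used here. Merged exon lengths ran from 1179 bases (PSMB3) to 10418 bases (PSMG4), and 17 members shared over 5% of their exon bases with another gene. PSMA1 shared 24.7%, PSMA2 34.6% and PSMA6 14.1%, and PSMC1, at a mean of 1.17 FPKM, shared 75.8%, mostly with NRDE2. Pseudogenes listed as genes of their own reached 24.3 FPKM beside PSMD10 and 6.92 FPKM beside PSMA6. Levels of members with shared exons or such pseudogenes are therefore uncertain.

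**Figure D1:**
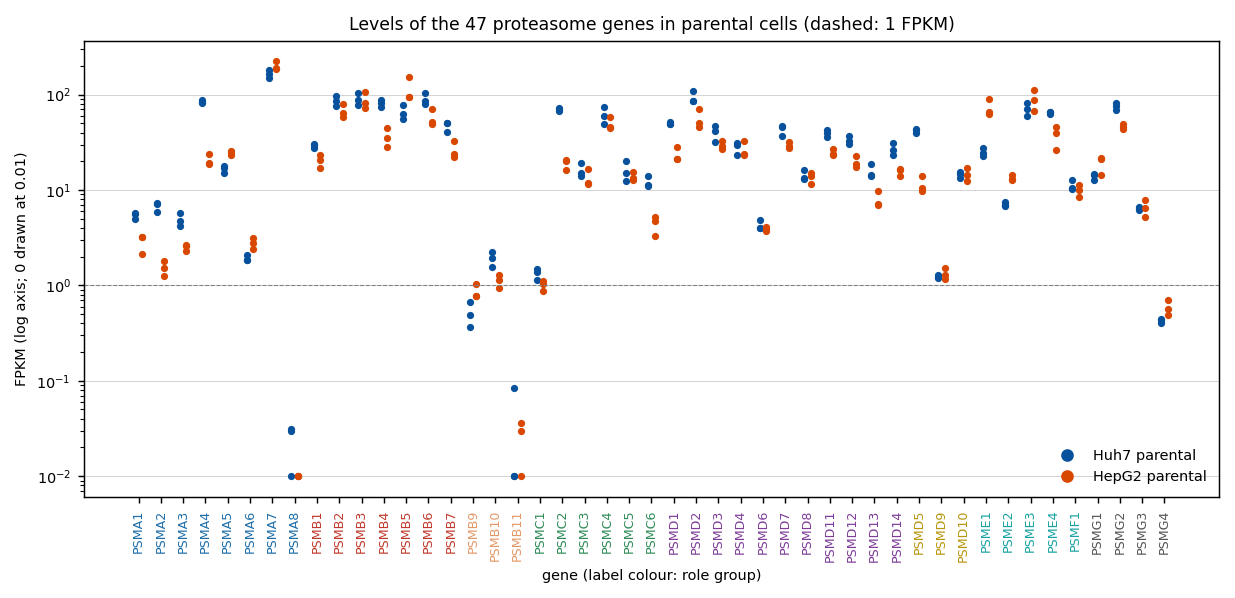
FPKM (log axis) of the 47 members in the 3 parental Huh7 samples (blue) and the 3 parental HepG2 samples (orange), ordered by role (gene names coloured by role), with values of 0 drawn at 0.01 and a dashed line at 1 FPKM. PSMA7 stands at the top in both lines, and PSMA8, PSMB9, PSMB11 and PSMG4 lie near or below 1 FPKM.

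The members tested had at least 1 FPKM in at least 3 samples of a line, which 43 of the 47 met in both lines. PSMA8, the testis subunit, and PSMB11, the thymus subunit, were at or near 0: PSMA8 did not exceed 0.0614 FPKM and PSMB11 did not exceed 0.0844 FPKM. PSMB9 lay between 0.309 and 1.04 FPKM and the core chaperone PSMG4 between 0.399 and 0.711 FPKM. Thus the immunoproteasome was represented among the tested genes by PSMB10 only.

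In resistant Huh7 cells, the proteasome genes were mostly higher than in parental cells. Of the 43 tested, 25 rose and 6 fell at an adjusted p-value under 0.05 (limma on log2(FPKM + 1), Benjamini-Hochberg adjustment over all genes tested), and 12 of the 25 rose by more than 1 on the log2 scale. PSMA2 was the only member that fell by more than 1. Among all 12554 genes tested in Huh7, 32.7% rose and 37.4% fell, and 8.59% rose and 14.0% fell beyond 1. The median log2 fold change was 0.55 over the members and -0.04 over all genes. Resistant and parental samples did not overlap in 26 members that were higher and 6 that were lower, beside 35.2% and 39.2% of all genes. The summed level of all members was 1581 to 1819 FPKM in the parental and 2653 to 2844 FPKM in the resistant samples.

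**Figure D2:**
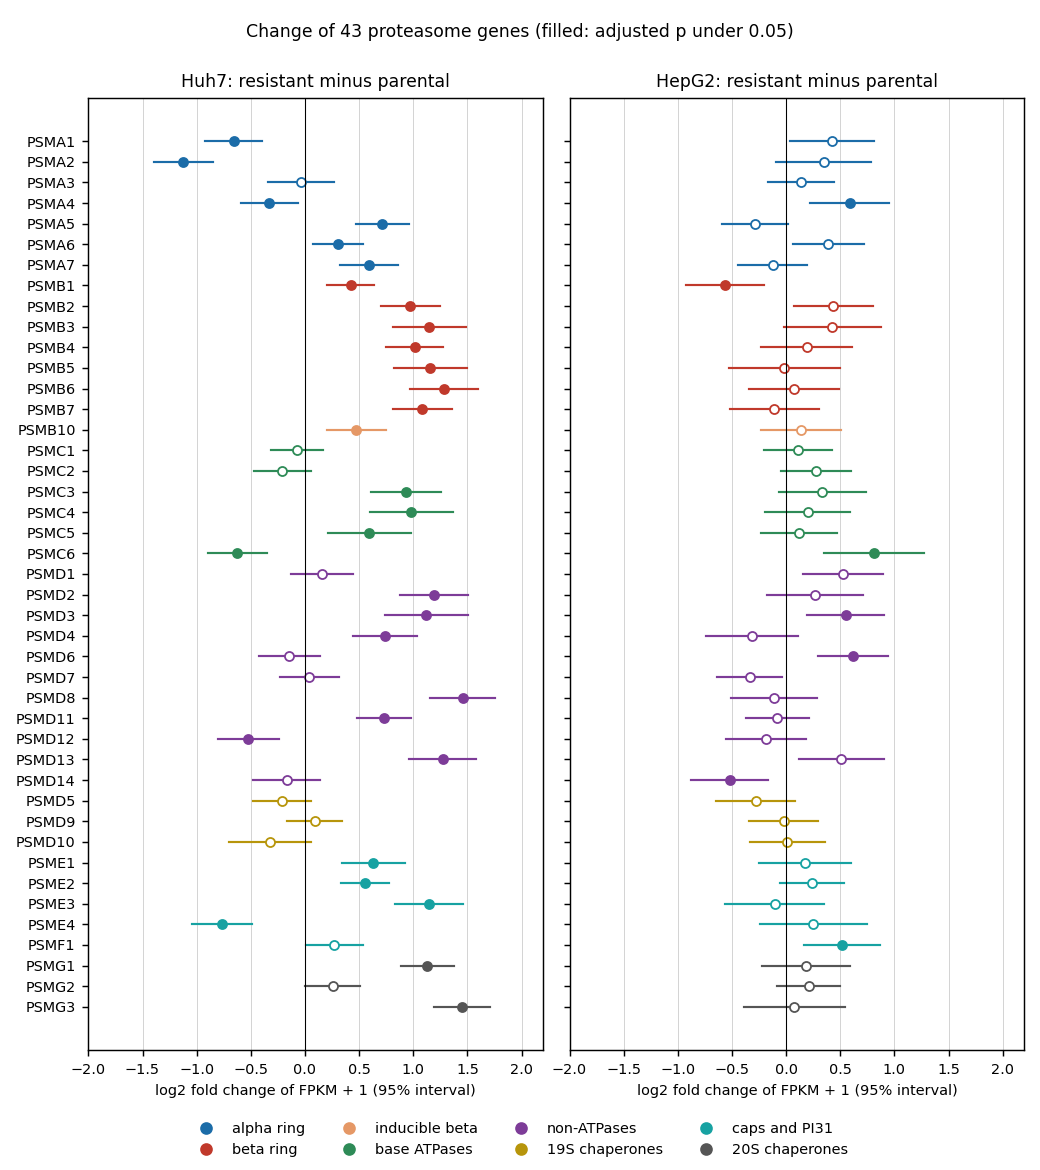
Log2 fold change of FPKM + 1 between resistant and parental cells, with its 95% interval, for the 43 tested members in Huh7 (left) and HepG2 (right), coloured by role, filled where the adjusted p-value is under 0.05. All 7 genes of the beta ring are filled and right of 0 in Huh7, whereas in HepG2 only PSMB1 of them is filled, left of 0.

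The beta ring moved as a whole. All 7 of its constitutive genes rose in resistant Huh7 cells, 5 of them beyond 1, with log2 fold changes from 0.42 (PSMB1) to 1.28 (PSMB6) and a median of 1.08. The summed level of the ring was 441, 474 and 552 FPKM in parental samples in ascending order and 968, 1042 and 1111 FPKM in resistant ones. PSMB5 (chr14:23016543-23035230, GRCh38, minus strand), the chymotrypsin-like subunit and the target of clinical proteasome inhibitors, measured 78.2, 63.1 and 55.9 FPKM in parental samples 1 to 3 and 165, 135 and 141 FPKM in resistant samples 1 to 3. The lowest resistant sample was well above the highest parental one, and the log2 fold change was 1.16 ± 0.15 (SE, adjusted p = 0.000225). PSMB6 (chr17:4796144-4798503, plus strand), the caspase-like subunit, stood at 105, 85.9 and 79.1 FPKM in parental and 240, 202 and 218 FPKM in resistant samples. Its log2 fold change was 1.28 ± 0.14 (adjusted p = 0.000108). PSMB7 (chr9:124353466-124415444, minus strand), the trypsin-like subunit, went from 50.2, 40.5 and 50.1 FPKM to 107, 98.3 and 96.0 FPKM, or by 1.08 ± 0.12 (adjusted p = 0.000122). Thus the 3 catalytic genes rose by similar amounts and their groups did not overlap.

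Among the non-catalytic beta genes, PSMB3 had 104, 87.3 and 78.5 FPKM in parental and 216, 171 and 213 FPKM in resistant samples, a log2 fold change of 1.15 ± 0.15. PSMB4 had 88.0, 82.5 and 73.9 FPKM against 173, 153 and 170 FPKM (1.01 ± 0.12), and PSMB2 had 96.0, 85.4 and 75.8 FPKM against 172, 169 and 163 FPKM (0.97 ± 0.12). The samples were apart in these 3 genes. PSMB1 rose least, from 30.1, 29.5 and 27.7 FPKM to 38.5, 38.6 and 40.8 FPKM, yet its groups were also apart (0.42 ± 0.10, adjusted p = 0.00403). The inducible subunit PSMB10, the counterpart of PSMB7, was low throughout, with 2.23, 1.95 and 1.57 FPKM in parental and 2.96, 2.97 and 3.18 FPKM in resistant Huh7 samples (0.47 ± 0.12, adjusted p = 0.00685), and it shares 34.8% of its exon bases with another gene. PSMB9, the counterpart of PSMB6, was listed at 0.490, 0.676 and 0.363 FPKM in parental and 0.309, 0.354 and 0.325 FPKM in resistant samples.

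**Figure D3:**
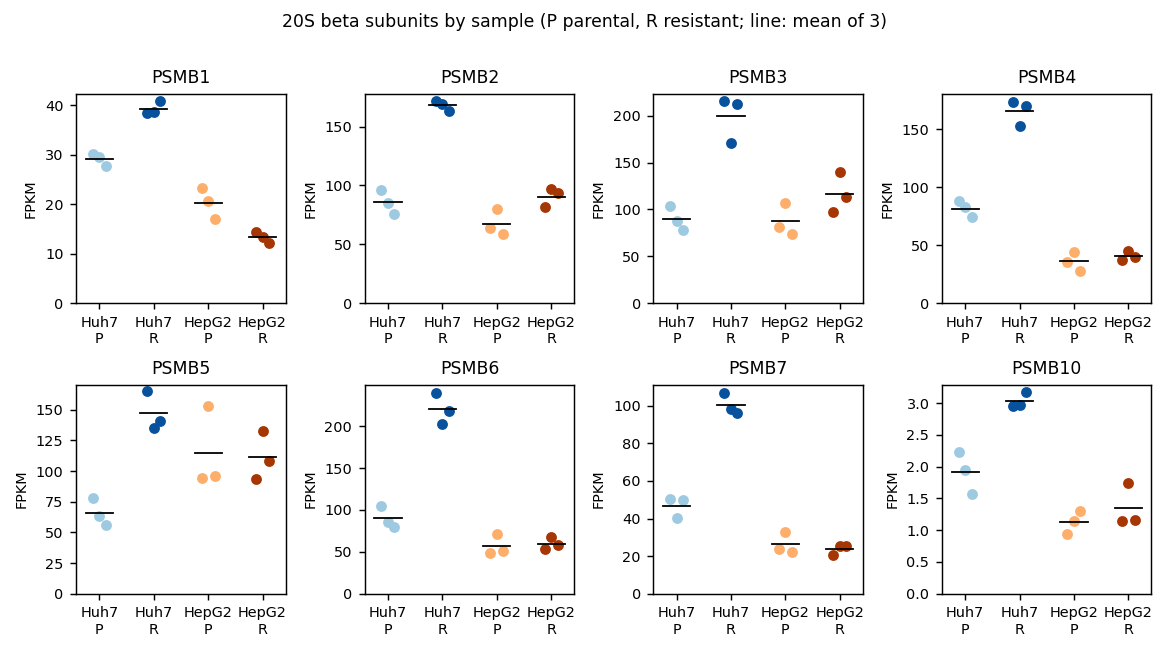
FPKM of the 7 constitutive beta genes and PSMB10 in every sample (P, parental; R, resistant; horizontal line, mean of 3 samples). In Huh7 the 3 resistant samples lie above the 3 parental ones in all 8 panels, whereas in HepG2 the groups overlap except for PSMB1, which is lower in resistant cells, and PSMB2, which is higher without passing the test.

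The alpha ring was divided. PSMA5, PSMA6 and PSMA7 rose, PSMA1, PSMA2 and PSMA4 fell and PSMA3 did not pass the test (-0.04 ± 0.13). With the GC trend removed, described below, 5 of the 7 were higher and 2 lower, and PSMA3 was at 0.72 ± 0.12 (adjusted p = 0.0020). PSMA6 (0.31 ± 0.10, adjusted p = 0.0241) lost its call when resistant sample 1 or 3 or parental sample 2 or 3 was left out. PSMA5 had the largest rise of the ring, from 17.9, 15.0 and 17.1 FPKM to 26.2, 28.8 and 28.9 FPKM (0.71 ± 0.11, adjusted p = 0.000492). The abundant PSMA7 went from 180, 166 and 151 FPKM to 243, 246 and 263 FPKM (0.60 ± 0.12; 0.27 with the GC trend removed). In contrast, PSMA2 (chr7:42916857-42932223, minus strand) measured 5.88, 7.32 and 7.13 FPKM in parental and 2.50, 2.83 and 2.36 FPKM in resistant samples, a log2 fold change of -1.12 ± 0.12 (adjusted p = 0.000101), which was -0.37 with the GC trend removed. PSMA1 fell by 0.66 on the log2 scale (SE 0.11) and PSMA4 by 0.33 (SE 0.12, adjusted p = 0.0313). The PSMA4 call was lost when resistant sample 1 or 3 or parental sample 2 or 3 was left out (adjusted p up to 0.113) and with upper-quartile scaling (adjusted p = 0.0621).

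In the base of the 19S cap, 3 ATPase genes rose (PSMC3, PSMC4 and PSMC5) and PSMC6 fell, whereas PSMC1 and PSMC2 did not pass the test (-0.07 ± 0.11 and -0.21 ± 0.12). PSMC4 measured 74.8, 59.8 and 49.1 FPKM in parental and 133, 105 and 124 FPKM in resistant samples (0.98 ± 0.17, adjusted p = 0.000934; 0.50 with the GC trend removed). PSMC6 measured 11.0, 11.4 and 14.2 FPKM against 7.21, 7.76 and 7.59 FPKM (-0.63 ± 0.12, adjusted p = 0.00172). The groups were apart for both genes, in opposite directions.

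Of the 11 non-ATPase subunits, 6 rose, 4 of them beyond 1, and only PSMD12 fell. The largest change of all members was that of PSMD8 (chr19:38374536-38383824, plus strand), a lid subunit, which measured 16.4, 13.5 and 13.0 FPKM in parental and 45.4, 35.8 and 41.7 FPKM in resistant samples (1.46 ± 0.13, adjusted p = 5.25e-05). Of the other lid subunits, PSMD13 measured 18.6, 14.3 and 14.1 FPKM against 43.5, 36.9 and 36.7 FPKM (1.27 ± 0.14), and PSMD3 47.5, 41.5 and 31.9 FPKM against 98.8, 74.6 and 91.5 FPKM (1.12 ± 0.17). In all 3 the resistant samples lay above the parental ones. PSMD2, a large scaffold of the base that binds ubiquitin-like domains, was at 109, 86.0 and 86.8 FPKM in parental and 239, 198 and 209 FPKM in resistant samples (1.19 ± 0.14). Rises within 1 were found for the lid subunit PSMD11 (0.73 ± 0.11) and the ubiquitin receptor PSMD4 (0.74 ± 0.13). PSMD14, the deubiquitinase of the lid, measured 23.2, 26.0 and 31.4 FPKM against 22.1, 26.4 and 22.5 FPKM, and these groups overlapped (-0.17 ± 0.13, adjusted p = 0.285). PSMD12 measured 32.4, 30.4 and 37.0 FPKM against 21.5, 26.0 and 21.2 FPKM (-0.52 ± 0.12, adjusted p = 0.00507).

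Of the core chaperones, 2 of 3 tested rose, and all 3 with the GC trend removed. Here PSMG3 (chr7:1567330-1571005, minus strand) measured 6.45, 6.18 and 6.57 FPKM in parental and 21.1, 16.8 and 19.9 FPKM in resistant Huh7 samples, with the smallest adjusted p-value of all members (1.45 ± 0.11, adjusted p = 3.02e-05). PSMG1 rose from 14.7, 12.9 and 14.4 FPKM to 31.3, 34.9 and 29.4 FPKM (1.13 ± 0.11). Its partner in the same heterodimer, PSMG2, measured 76.3, 81.8 and 68.6 FPKM against 87.2, 95.9 and 87.8 FPKM and did not pass the test (0.26 ± 0.11, adjusted p = 0.0656), although it did with median-ratio or upper-quartile scaling (adjusted p = 0.0410 and 0.0436). Resistant and parental samples were apart in each of the 3 genes. Of the base chaperones, 0 of 3 passed (limma; also 0 at an unadjusted p under 0.05, and 1 lower with limma-voom on recovered reads). With the GC trend removed 1 of the 3 was called higher, PSMD5 (0.25, adjusted p = 0.0339), which was below 0 as deposited. Their log2 fold changes were 0.09 ± 0.11 for PSMD9, -0.21 ± 0.12 for PSMD5 and -0.33 ± 0.17 for PSMD10 (gankyrin). PSMD10 measured 13.3, 14.6 and 15.6 FPKM in parental and 9.45, 15.0 and 10.2 FPKM in resistant samples, so its groups overlapped, and PSMD5 measured 43.6, 42.3 and 39.9 FPKM against 31.5, 40.1 and 37.3 FPKM, which overlapped as well.

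The alternative caps did not move together. PSME3, the nuclear cap, measured 81.8, 70.1 and 60 FPKM in parental and 170, 155 and 145 FPKM in resistant samples (1.15 ± 0.14, adjusted p = 0.000168). PSME1 and PSME2, which form the interferon-inducible cap, rose by 0.63 ± 0.13 and 0.55 ± 0.10. PSME4, a cap of a single large chain, measured 63.4, 66.0 and 66.5 FPKM against 32.9, 43.5 and 38.1 FPKM (-0.77 ± 0.12, adjusted p = 0.000622). PSMF1, which encodes the inhibitor PI31, measured 12.6, 10.5 and 10.2 FPKM against 14.3, 14.0 and 12.4 FPKM and did not pass the test (0.27 ± 0.12, adjusted p = 0.0633), although it did with median-ratio or upper-quartile scaling (adjusted p = 0.0405 and 0.0329).

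The Huh7 changes followed the base composition of the genes. Over the 43 members, the log2 fold change and the GC content of the transcripts had a Spearman correlation of 0.76, and over all genes tested of 0.63. These points are genes of the same 6 libraries and are not independent. Members that rose had a median GC content of 52.0% (range 40.5 to 62.0%), and members that fell had 40.6% (39.4 to 43.7%). In HepG2 the correlations were -0.05 and 0.03. The fit was therefore repeated with the trend over GC content subtracted from every library, which lowered the correlation over the members to 0.17. In that fit 32 members were higher and 2 lower (PSMA1 and PSMA2) in resistant Huh7 cells, beside 32.3% and 31.3% of all genes. Of the 25 members called higher in the fit as deposited, 23 were called again, without PSMB10 and PSMC5, and of the 6 called lower, 2 were. Only 4 members were higher beyond 1 and 0 lower: PSMA5 (1.41 ± 0.11), PSMG1 (1.30 ± 0.07), PSMB2 (1.23 ± 0.11) and PSMD13 (1.04 ± 0.10).

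The beta ring kept its rise in this fit: 7 of 7 genes were higher, by 0.78 (PSMB5) to 1.23 (PSMB2), with a median of 0.85. PSMD14, with the lowest GC content of the tested members (36.9%), changed from -0.17 to 0.82 ± 0.07 (adjusted p = 0.000103), and all but PSMD7 of the non-ATPase subunits were then higher. PSMA4, PSMC2 and PSMD12 turned to 0.25 ± 0.06, 0.42 ± 0.07 and 0.27 ± 0.08 (adjusted p = 0.0105, 0.00161 and 0.0184). PSMC6 and PSME4 no longer passed (0.18 ± 0.07 and -0.12 ± 0.08). Hence the falls of PSMA4, PSMC6, PSMD12 and PSME4 were not called once the GC trend was removed, whereas the rise of the beta ring was called in both fits.

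**Figure D4:**
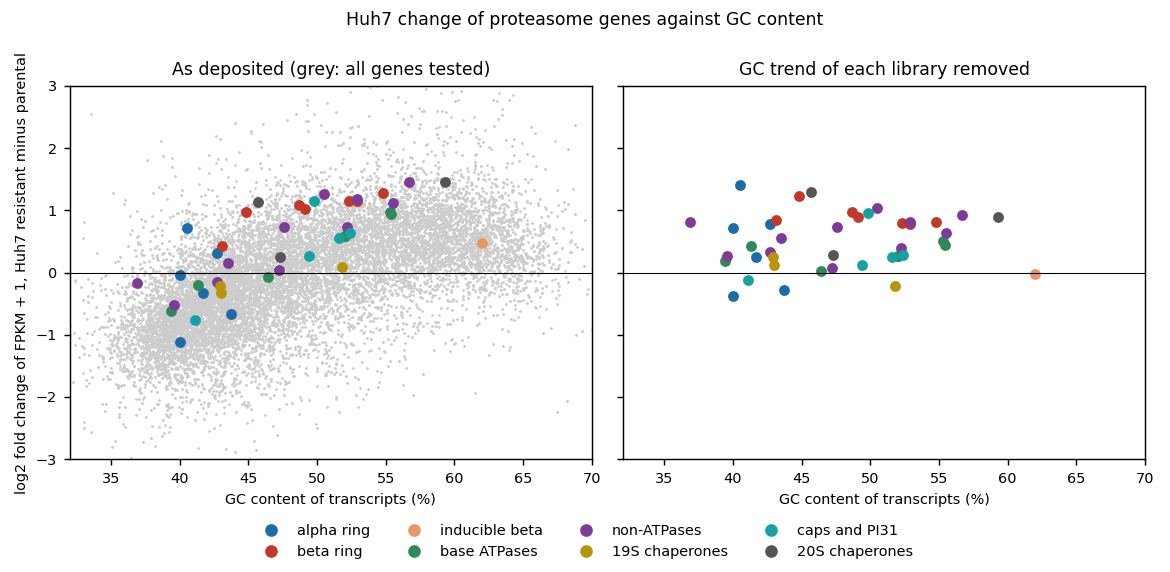
Huh7 log2 fold change of FPKM + 1 against the GC content (%) of the transcripts, for the values as deposited (left; grey points are all genes tested, coloured points the 43 members by role, genes beyond 3 not drawn) and with each library's trend over GC content taken out (right; members only). On the left the members climb with GC content, and on the right 32 of 43 are called higher.

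In resistant HepG2 cells, few proteasome genes changed and none changed beyond 1. At an adjusted p-value under 0.05, 5 of 43 rose (PSMA4, PSMC6, PSMD3, PSMD6 and PSMF1) and 2 fell (PSMB1 and PSMD14), beside 11.6% and 8.43% of the 11762 genes tested, so that the members' shares of 11.6% and 4.65% were near those of all genes. Beyond 1, the count was 0 in both directions in limma, also at an unadjusted p under 0.05 and with limma-voom, beside 3.29% and 2.98% of all genes. The median log2 fold change was 0.18 over the members and 0.12 over all genes. The groups were apart in 15 members that were higher and 5 that were lower, beside 24.9% and 15.5% of all genes. With median-ratio scaling 2 members rose and 2 fell, beside 8.75% and 10.6% of all genes. Upper-quartile scaling gave 3 and 2, beside 9.13% and 9.72%, and removal of the GC trend 7 and 5, beside 16.1% and 18.3%. Without the filter on low values 1 rose and 0 fell, beside 3.45% and 3.08%. No member was called higher or lower when resistant sample 3 or parental sample 1 was left out. Of all genes, 3.34% rose and 4.03% fell without the former, and 5.77% and 4.93% without the latter. The count of higher members fell to 3 without resistant sample 1 or 2. The count of lower members was 0 without resistant sample 2 or parental sample 2 and 1 without parental sample 3.

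PSMC6 had the largest change in HepG2, with 4.76, 3.28 and 5.24 FPKM in parental and 10.5, 6.91 and 8.10 FPKM in resistant samples (0.81 ± 0.20, adjusted p = 0.0259). PSMD6, a lid subunit, measured 3.75, 3.87 and 4.11 FPKM against 7.53, 6.11 and 6.01 FPKM (0.62 ± 0.14, adjusted p = 0.0196). PSMA4 measured 19.2, 18.8 and 24.0 FPKM against 35.4, 27.3 and 31.8 FPKM (0.59 ± 0.16, adjusted p = 0.0345). In these 3 genes the lowest resistant sample exceeded the highest parental one. PSMD3 and PSMF1 rose by 0.55 ± 0.15 and 0.51 ± 0.15 (adjusted p = 0.0396 and 0.0486), and both calls were lost with either scaling (adjusted p = 0.0734 to 0.0886). The PSMA4 call was lost with median-ratio scaling (adjusted p = 0.0557), and that of PSMD14, given next, with a pseudocount of 0.1 or without the mean trend (adjusted p = 0.0518 and 0.0523). PSMB1 measured 23.3, 20.6 and 17 FPKM against 14.4, 13.4 and 12.2 FPKM (-0.56 ± 0.16, adjusted p = 0.0371), and PSMD14 16.7, 14.0 and 16.1 FPKM against 12.6, 9.18 and 10.1 FPKM (-0.52 ± 0.16, adjusted p = 0.0491). The catalytic genes had intervals that included 0: PSMB5 changed by -0.02 (95% interval -0.53 to 0.50), PSMB6 by 0.08 (-0.34 to 0.49) and PSMB7 by -0.11 (-0.52 to 0.30). PSMB5 samples overlapped, with 94.3, 153 and 95.6 FPKM in parental and 93.3, 133 and 108 FPKM in resistant cells.

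The change itself was then compared between the lines in all 12 samples. The Huh7 change was above the HepG2 change in 20 of 43 members and below it in 7 at an adjusted p-value under 0.05, beside 23.1% and 33.2% of the 13800 genes tested. The difference was beyond 1 in 7 members upwards and 4 downwards, beside 10.6% and 18.2% of all genes. The median difference was 0.45 over the members and -0.15 over all genes, which was 0.00 over all genes with the GC trend removed. That fit gave 24 members above and 4 below, beside 28.4% and 26.9% of all genes. All 7 beta ring genes were among the 20, with differences of 0.54 (PSMB2) to 1.21 (PSMB6), and all 7 were called again without the GC trend (0.49 to 1.48). The call for PSMB3 (0.72, adjusted p = 0.0299) was lost without the filter on low values and on leaving out resistant Huh7 sample 1 or 3, parental Huh7 sample 2 or 3, resistant HepG2 sample 1 or 3 or parental HepG2 sample 2 (adjusted p up to 0.0723). That for PSMB2 was lost on leaving out resistant Huh7 sample 1 or 2, parental Huh7 sample 2 or 3, resistant HepG2 sample 1 or parental HepG2 sample 2. The smallest adjusted p-value belonged to PSMD8 (1.57 ± 0.22, adjusted p = 0.000155), followed by PSMA5 (1.00 ± 0.14, adjusted p = 0.000193). PSMB1 rose in Huh7 and fell in HepG2, a difference of 0.99 ± 0.16 (adjusted p = 0.000469).

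The opposite order was found for PSMA2 (-1.47 ± 0.22), PSMC6 (-1.43 ± 0.24), PSMA1 (-1.08 ± 0.19) and PSME4 (-1.02 ± 0.26). Of these, PSMC6 fell in Huh7 and rose in HepG2. Without the GC trend the differences were -0.64 ± 0.12 for PSMA2, -0.56 ± 0.12 for PSMC6 and -0.65 ± 0.14 for PSMA1, all still called, and PSME4 was not called (-0.30 ± 0.16, adjusted p = 0.139). The count of differences below -1 was 2 without parental HepG2 sample 2.

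**Figure D5:**
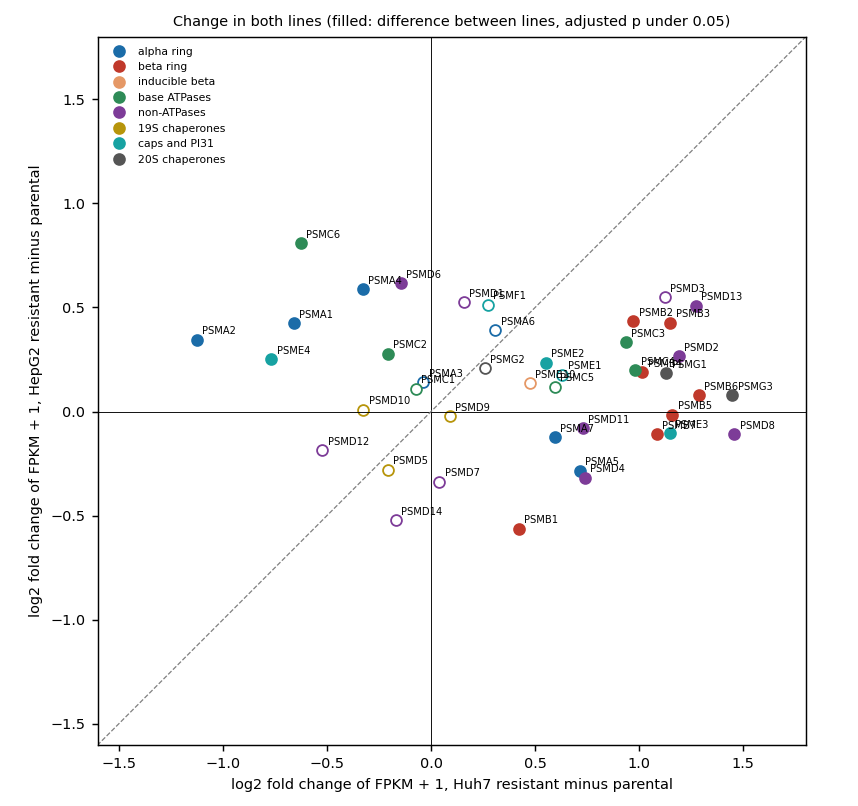
Log2 fold change of FPKM + 1 in Huh7 (horizontal) and HepG2 (vertical) for the 43 members, coloured by role and filled where the difference between the lines has an adjusted p-value under 0.05, with a dashed line of equal change. The beta ring and PSMD8, PSMG3 and PSME3 lie below the dashed line, and PSMC6, PSMA4, PSMA1, PSMA2 and PSME4 lie above it.

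Parental cells of the lines also differed. Of the 43 members, 23 were higher in parental Huh7 than in parental HepG2 cells and 7 were lower, beside 39.8% and 27.4% of all genes, and 7 were higher and 1 lower beyond 1, beside 18.3% and 11.9%. The groups were apart in 22 members higher in Huh7 and 6 lower, beside 40.7% and 28.0% of all genes. This comparison shares its parental samples with those above. The largest differences were in PSMA4 (82.8, 84.1 and 87.3 FPKM in Huh7 and 19.2, 18.8 and 24.0 FPKM in HepG2, a log2 difference of 1.99 ± 0.13, adjusted p = 9.61e-08) and the ATPase PSMC2 (67, 70 and 72.2 FPKM against 20.7, 16.4 and 20.3 FPKM, 1.82 ± 0.11, adjusted p = 7.55e-08). PSMD5 and PSMA2 were higher in Huh7 by 1.8 ± 0.13 and 1.62 ± 0.16. In the other direction, PSME1 measured 27.5, 22.7 and 24.2 FPKM in Huh7 and 65.8, 90 and 62.2 FPKM in HepG2 (-1.50 ± 0.16, adjusted p = 7.21e-06). Its partner PSME2 was also lower in Huh7 (-0.83 ± 0.09), and so was PSMB5 (-0.77 ± 0.20, adjusted p = 0.00587), while PSMB6 and PSMB7 were higher (0.66 ± 0.16 and 0.83 ± 0.15). In every gene named here the parental Huh7 and parental HepG2 samples did not overlap. The Spearman correlation of this difference with GC content was -0.42 over the members. With the GC trend removed against all 12 samples 21 members were higher and 9 lower, beside 35.5% and 35.3% of all genes.

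The promoters were searched for the core of the antioxidant response element, TGACNNNGC, on both strands. NFE2L1 and its relatives bind this element together with small Maf proteins. Windows of RefSeq promoters (GRCh38.p14, from 250 bases before to 50 bases after the start) were held for 41 of the 47 members. Those not held were PSMA7, PSMB1, PSMB6, PSMB7, PSMD4 and PSMG3. The letters occurred in 15 of the 41 members (36.6%) and in 15 of their 49 windows (30.6%), beside 16.1% of all symbols and 13.3% of all 35116 windows of this length. Among members with a window, 7 of 19 that rose in Huh7 held a match, as did 3 of 6 that fell. Of those that did not pass the test, 4 of 12 held a match, and 1 match was in a member not tested. The members that fell and held a match were PSMA4, PSMD12 and PSME4. With the GC trend removed, PSMA4 and PSMD12 were called higher (0.25 and 0.27) and PSME4 was not called (-0.12). Below are the bases before the annotated gene of 4 members with a match there that passed the test in Huh7 as deposited. They show the match in members that rose (PSMB3, PSMD3 and PSME1) and in 1 that fell (PSMD12). PSME4, which also fell in that fit, held a match there too, but its bases are not printed. Capitals mark the match, and each is read 5′ to 3′ on the strand of its gene.
PSMB3, chr17:38752491-38752735, plus strand: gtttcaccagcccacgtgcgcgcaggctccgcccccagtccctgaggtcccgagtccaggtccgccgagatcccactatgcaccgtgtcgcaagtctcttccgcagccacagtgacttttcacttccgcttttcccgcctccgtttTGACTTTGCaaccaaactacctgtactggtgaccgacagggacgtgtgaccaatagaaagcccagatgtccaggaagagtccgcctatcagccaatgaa
PSMD3, chr17:39980557-39980796, plus strand: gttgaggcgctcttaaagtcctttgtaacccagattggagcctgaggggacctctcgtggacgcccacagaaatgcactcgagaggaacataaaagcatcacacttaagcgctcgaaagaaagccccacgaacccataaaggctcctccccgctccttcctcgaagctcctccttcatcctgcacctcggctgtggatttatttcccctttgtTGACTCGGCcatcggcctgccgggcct
PSME1, chr14:24135944-24136157, plus strand: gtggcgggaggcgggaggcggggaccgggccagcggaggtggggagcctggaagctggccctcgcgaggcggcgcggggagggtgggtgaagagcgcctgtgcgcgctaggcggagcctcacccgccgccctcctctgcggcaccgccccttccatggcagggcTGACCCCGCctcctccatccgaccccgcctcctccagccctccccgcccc
PSMD12, chr17:67366628-67366827, minus strand: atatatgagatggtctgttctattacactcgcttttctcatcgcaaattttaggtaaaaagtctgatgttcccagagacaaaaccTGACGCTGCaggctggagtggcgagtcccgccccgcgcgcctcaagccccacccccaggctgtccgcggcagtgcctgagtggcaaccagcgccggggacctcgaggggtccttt
The first base of the match lay 104 bases before the start in PSMB3, 37 in PSMD3, 86 in PSME1 and 165 in PSMD12. A match of these letters is a description of the window and was not tested for binding.

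NFE2L1, its dimer partners and the proteins that process it were examined as a further list. In resistant Huh7 cells 5 of its 8 tested genes rose and 3 fell, beside 32.7% and 37.4% of all genes. NFE2L1 itself measured 17.8, 13.3 and 13.1 FPKM in parental and 30.9, 29.4 and 30.2 FPKM in resistant samples (1.00 ± 0.13, adjusted p = 0.000245). VCP, the ATPase that extracts it from the endoplasmic reticulum membrane, rose by 1.21 ± 0.13, its dimer partner MAFG by 1.07 ± 0.13 and MAFF by 0.81 ± 0.12. SEL1L, which serves its turnover with SYVN1, fell from 19, 19.8 and 23.7 FPKM to 6.17, 8.19 and 6.61 FPKM (-1.45 ± 0.13, adjusted p = 5.73e-05), whereas SYVN1 rose (0.51 ± 0.14). The protease DDI2, which activates NFE2L1, fell by 0.47 on the log2 scale (SE 0.11), and NGLY1, which removes its sugar chains, changed by -0.69 ± 0.12 (adjusted p = 0.0010). With the GC trend removed the changes were 0.50 for NFE2L1, 0.84 for VCP, 0.52 for MAFG, 0.27 for MAFF and -0.79 for SEL1L, all still called. DDI2, at -0.16, was not called, and neither were SYVN1 and NGLY1. This left 4 genes higher and 1 lower in the list, beside 32.3% and 31.3% of all genes. In resistant HepG2 cells MAFF and MAFG fell instead: MAFF measured 6.21, 5.85 and 3.71 FPKM in parental and 1.09, 1.15 and 0.890 FPKM in resistant samples (-1.59 ± 0.19, adjusted p = 0.00147), and MAFG changed by -0.96 ± 0.17. NFE2L1 did not pass the test there (-0.31 ± 0.15, adjusted p = 0.189), although it did with the GC trend removed (-0.39, adjusted p = 0.0150). The difference between the lines was 2.40 ± 0.22 for MAFF, 2.03 ± 0.20 for MAFG and 1.31 ± 0.19 for NFE2L1.

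Partners of the proteasome that carry other symbols gave a mixed picture. Of 15 tested in Huh7, 3 rose and 4 fell, and of 14 in HepG2, 0 rose (limma; 1 at an unadjusted p under 0.05 and 0 with limma-voom) and 4 fell, beside the 32.7% and 37.4% of all genes in Huh7 and the 11.6% and 8.43% in HepG2 given above. In Huh7, 6 were higher and 1 lower once the GC trend was removed, beside 32.3% and 31.3% of all genes. The ubiquitin receptor ADRM1 rose in Huh7 by 0.75 ± 0.23, although its call was lost without resistant sample 3 (0.49, adjusted p = 0.0503) and with the GC trend removed (0.30, adjusted p = 0.132). The small lid subunit SEM1 and the deubiquitinase UCHL5 fell by 0.80 (SE 0.13) and 0.83 (SE 0.17) on the log2 scale, to -0.18 and 0.04 with the GC trend removed, neither called. The deubiquitinase USP14 and the core assembly factor POMP did not pass the test (-0.17 ± 0.11 and -0.09 ± 0.14). With the GC trend removed they were at 0.46 and 1.05 (adjusted p = 0.00185 and 0.00158). POMP had only 1.44, 1.12 and 1.39 FPKM in parental and 0.997, 1.6 and 0.994 FPKM in resistant Huh7 samples, which overlapped. Between 9 and 44 reads stood behind it in the 12 samples, so the value of POMP without the GC trend is uncertain. In HepG2, AKIRIN2, which carries proteasomes into the nucleus, measured 88.4, 108 and 82.4 FPKM in parental and 33.8, 38.7 and 41.6 FPKM in resistant samples (-1.26 ± 0.16, adjusted p = 0.00168). POMP did not reach the level for the HepG2 test.

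Among genes for ubiquitin and its activating enzymes, UBB (0.88 ± 0.13), RPS27A (0.72 ± 0.15) and the activating enzyme UBA1 (0.67 ± 0.15) rose in resistant Huh7 cells. The second activating enzyme UBA6 fell from 13.4, 16.8 and 19.9 FPKM to 5.40, 6.14 and 4.66 FPKM (-1.46 ± 0.16, adjusted p = 0.000107), and its change was -0.45 with the GC trend removed. Of the antigen presentation genes, 0 of 5 tested passed in Huh7 (limma; 0 at an unadjusted p under 0.05 and 1 higher with limma-voom), beside 32.7% higher and 37.4% lower of all genes. With the GC trend removed 2 were higher and 1 lower, beside 32.3% and 31.3%. In HepG2 1 of 9 rose, the regulator NLRC5 (0.83 ± 0.15, adjusted p = 0.00736), a share near the 11.6% of all genes.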

How the data were processed

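Total RNA of 12 samples was sequenced from libraries made, per the labels, with the NEBNext Ultra RNA kit. The labels and the study's methods name different RNA extraction kits. The submitters' processing notes name bcl2fastq and GRCh38, and the aligner and counter are not given in the sources used here. The deposited tables hold 1 value per gene and sample without a stated unit. Of their 98711 genes, 71462 under NONCODE identifiers were not used. As value times exon length fell on whole multiples of 1 step per sample, the deposited values were read as FPKM (RPKM would look the same) and were not rescaled. Between 99.8 and 99.9% of values in single-exon genes, up to 2000 reads, lay within 0.05 of a whole read, and 97.6 to 97.8% over all genes, which gave the reads behind each sample. Exon lengths, positions and base composition were taken from GENCODE release 29 for 27234 of the 27249 identifiers.

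The members, lists, tests and alternatives were chosen with earlier results of these data known. Tests required 1 FPKM or more in 3 or more samples of a fit. They used limma 3.58.1 in R 4.3.3 (moderated, with a mean trend, two-sided) on log2(FPKM + 1), a scale that understates changes of low genes, within each line, and in a model of all 12 samples for the difference between lines and the parental comparison. Adjusted p-values are Benjamini-Hochberg over all genes tested, and errors are SE. In simulated data, 97.7% of genes changed by 1 on the log2 scale were recovered in Huh7 (17 other genes called of 12136) and 96.9% in HepG2 (16 of 11551). The simulation used a fixed spread between samples that was not taken from the data, and it held no GC trend. Changes were planted only in genes well above the filter. These figures therefore check the procedure and do not give recovery or false calls for the samples here. Members described with values were those changed beyond 1, the catalytic genes, the highest and lowest of each role group per line, the 5 smallest adjusted p-values between lines and the 5 largest parental differences. From the other lists these were genes changed beyond 1 and POMP, ADRM1, SEM1, USP14, UCHL5, NFE2L1 and DDI2. Further genes were named after their values were seen. Alternatives were a pseudocount of 0.1, no filter, median-ratio and upper-quartile scaling, limma-voom on recovered reads, no mean trend, the replicate number as a block, all 12 samples in 1 fit, leaving out each sample and removal of the GC trend (lowess, span 0.3, of each sample's deviation from the mean of its line). Removal against all 12 samples was added after seeing the data. Tables were read with Python 3.11.15 and pandas 2.3.3, and plots were made with matplotlib 3.10.9. No samples of a group agreed within sampling noise (chi-square per degree of freedom at least 10.2).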

Additional observations from a re-analysis of the deposited data

Results flagged for a closer look

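For 27 members the change differed between the lines at an adjusted p-value under 0.05 (limma, all 12 samples). The differences, as the Huh7 change minus the HepG2 change on the log2 scale, were as follows. In the core, they were -1.47 for PSMA2, -1.08 for PSMA1, -0.92 for PSMA4, 0.72 for PSMA7 and 1.00 for PSMA5 in the alpha ring. In the beta ring they were 0.54 for PSMB2, 0.72 for PSMB3, 0.83 for PSMB4, 0.99 for PSMB1, 1.17 for PSMB5, 1.19 for PSMB7 and 1.21 for PSMB6. Among the ATPases they were -1.43 for PSMC6, -0.49 for PSMC2, 0.60 for PSMC3 and 0.78 for PSMC4. Among the non-ATPase subunits they were -0.76 for PSMD6, 0.76 for PSMD13, 0.81 for PSMD11, 0.92 for PSMD2, 1.06 for PSMD4 and 1.57 for PSMD8. Among caps and core chaperones they were -1.02 for PSME4, 0.32 for PSME2, 1.25 for PSME3, 0.95 for PSMG1 and 1.37 for PSMG3. With the GC trend removed, PSMC2, PSMC3, PSMD6, PSME2 and PSME4 were not called, and 6 members not called as deposited were: PSMA3, PSMA6, PSMD5, PSMD7, PSMD12 and PSMD14 (1.41, adjusted p = 8.22e-07). Other calls were lost as well: PSMC2 with either scaling, PSME2 with limma-voom or without the mean trend, PSMB3 and PSMC3 without the filter, and PSMB2, PSMB3, PSMC2, PSMC3 and PSME2 on leaving out 1 of several samples.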

How the results depend on the processing

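Alternatives that moved a count of members are given first. With the GC trend removed, Huh7 had 2 members lower, 4 higher beyond 1 and 0 lower beyond 1, HepG2 had 5 lower, the difference between lines had 4 below and 0 below -1, and, against all 12 samples, the parental comparison had 2 lower beyond 1. In HepG2, 1 member was higher without the filter, 2 with median-ratio scaling and 3 with upper-quartile scaling. With all 12 samples in 1 fit 10 were higher, beside 17.5% of all genes. The lower count in HepG2 was 1 with a pseudocount of 0.1 or without the mean trend and 0 without the filter. For the difference between lines, 11 members were above 1 with either scaling and 2 below -1 with upper-quartile scaling. Leaving out 1 sample gave 24 to 26 higher and 5 to 7 lower in Huh7 (10 to 15 and 1 beyond 1), 0 to 5 and 0 to 2 in HepG2 (0 beyond 1), 16 to 22 and 6 to 8 for the difference between lines (5 to 10 and 2 to 5 beyond 1) and 21 to 24 and 5 to 8 in the parental comparison (6 to 7 and 1 beyond 1). Deviations of same-numbered samples correlated at 0.08, 0.06 and -0.23 in Huh7, within the range of differently numbered ones (-0.33 to 0.28). In HepG2 they correlated at 0.25, 0.44 and -0.01, beside -0.42 to 0.21 for differently numbered ones. Whether replicate numbers pair the HepG2 samples is therefore not settled. With the replicate block, 9 members were higher and 2 lower in HepG2, beside 17.9% and 11.1% of all genes. In Huh7 the counts were 24 and 6, beside 32% and 36.6%. They were 18 and 7 for the difference between lines, beside 21.5% and 31.7%, and 22 and 6 in the parental comparison, beside 38.7% and 26.4%. PSMA6 in Huh7 and PSMC3 and PSME2 between lines were among the calls lost.

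Directions of the genes chosen for description turned as follows. In Huh7 with the GC trend removed, the log2 fold changes were 0.25 for PSMA4, -0.03 for PSMB10, 0.03 for PSMC1, 0.42 for PSMC2, 0.18 for PSMC6, 0.12 for PSMD10, 0.27 for PSMD12, 0.82 for PSMD14, 0.25 for PSMD5, 0.33 for PSMD6, -0.22 for PSMD9, -0.04 for AKIRIN2, 1.05 for POMP, 0.04 for UCHL5 and 0.46 for USP14, and of the other members PSMA3 turned to 0.72. In HepG2, median-ratio scaling gave -0.02 for PSMB6, -0.09 for PSMD10, -0.01 for PSMG3, -0.03 for DDI2 and -0.05 for VCP, upper-quartile scaling -0.06 for PSMD10, -0.01 for DDI2 and -0.02 for VCP, and removal of the GC trend -0.08 for PSMB10, 0.00 for PSMB6, -0.08 for PSMD10, -0.05 for PSMG3, -0.01 for DDI2 and -0.01 for VCP. Leaving out 1 sample also turned the HepG2 direction, with ranges of -0.15 to 0.21 for PSMB5, -0.02 to 0.24 for PSMB6, -0.22 to 0.05 for PSMB7, -0.10 to 0.12 for PSMD10, -0.25 to 0.01 for PSMD8, -0.07 to 0.04 for PSMD9, -0.29 to 0.08 for PSME3, -0.07 to 0.23 for PSMG3, -0.08 to 0.22 for DDI2, -0.05 to 0.06 for USP14 and -0.07 to 0.21 for VCP. None of these HepG2 genes had passed the test. The cause was not tested. The median over all genes moved in HepG2 from 0.12 to 0.04 (median-ratio) and 0.06 (upper-quartile). Precision was limited by 3 samples a group.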
